A study of Mus musculus with 4 samples.

Results

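Shallow regions of many clusters were stretches of the nuclear genome in which SRSF4-GFP iCLIP listed numerous separate, weak crosslink clusters on 1 strand. They were chosen from the list of crosslink sites itself. Sites at most 50 nt apart on 1 strand were joined into clusters, and clusters with gaps under 20 kb into regions. Regions of 10 or more clusters with a mean under 1.5 cDNAs per site were kept. Of 5448 nuclear regions, 30 had 10 or more clusters, and 3 of these were deeper than the limit. A further 3 shallow regions on the minus strands of chromosomes 2, 14 and 19 were left out by position, which gave 24 regions. The names that came with these definitions are Ttn, Ldb3 and Neat1 for the 3 left-out regions and Malat1, Myh6 and Tnnt2 for the 3 deeper ones. Those names were not checked against an mm9 annotation, and the 24 regions are given by mm9 position without gene names.

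The cells were cardiomyocytes of newborn C57BL/6 mice (P0 or P1), plated at 8000000 cells per dish. They received 15 μg of modified mRNA for an SRSF4-GFP fusion with 21 μL of Lipofectamine 2000, and were exposed to 100 mJ of 254 nm light 48 h later. In iCLIP the light links RNA to protein, an antibody (here anti-GFP) recovers the complex, and reverse transcription tends to stop at the linked nucleotide, so that the end of a cDNA marks the contact. All 4 libraries belong to 1 group with no control group, so RNA bound by the fusion and background in the pull-down cannot be told apart. The protein was supplied as transfected mRNA in addition to the cells' own SRSF4, and the labels do not say whether libraries came from separate cultures. The labels' extraction text also mentions frozen hearts, which differs from the cultured cells described for growth. Marker genes of cardiomyocytes and of other heart cells were not checked here.

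SRSF4 belongs to the SR proteins, which carry RNA recognition motifs and a domain rich in serine and arginine. SR proteins bind short exonic sequences in pre-mRNA, help to recruit the spliceosome to nearby splice sites, and are found in nuclear speckles. An SR protein can touch an RNA at many short places along its length. How many cDNAs each place yields depends on the abundance of the RNA as well as on binding, and RNA abundance was not measured here.

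The 24 regions held 369 clusters with 1512 sites and 1800 cDNAs, which is 4.60% of the 32891 nuclear sites and 2.04% of nuclear cDNAs. The values are 1 pooled list, so no spread between replicates exists and no test was run. Length ran from 3.18 kb to 81.3 kb with a median of 18.7 kb, and the number of sites from 27 to 142 with a median of 51. The 5 regions with the most sites held 39.6% of all sites in the set. The regions were spread over 16 chromosomes, with 3 each on chromosomes 1 and 8. The plus strand had 10 of them and the minus strand 14 (41.7% plus, 95% exact interval 22.1% to 63.4%).

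**Figure D1:**
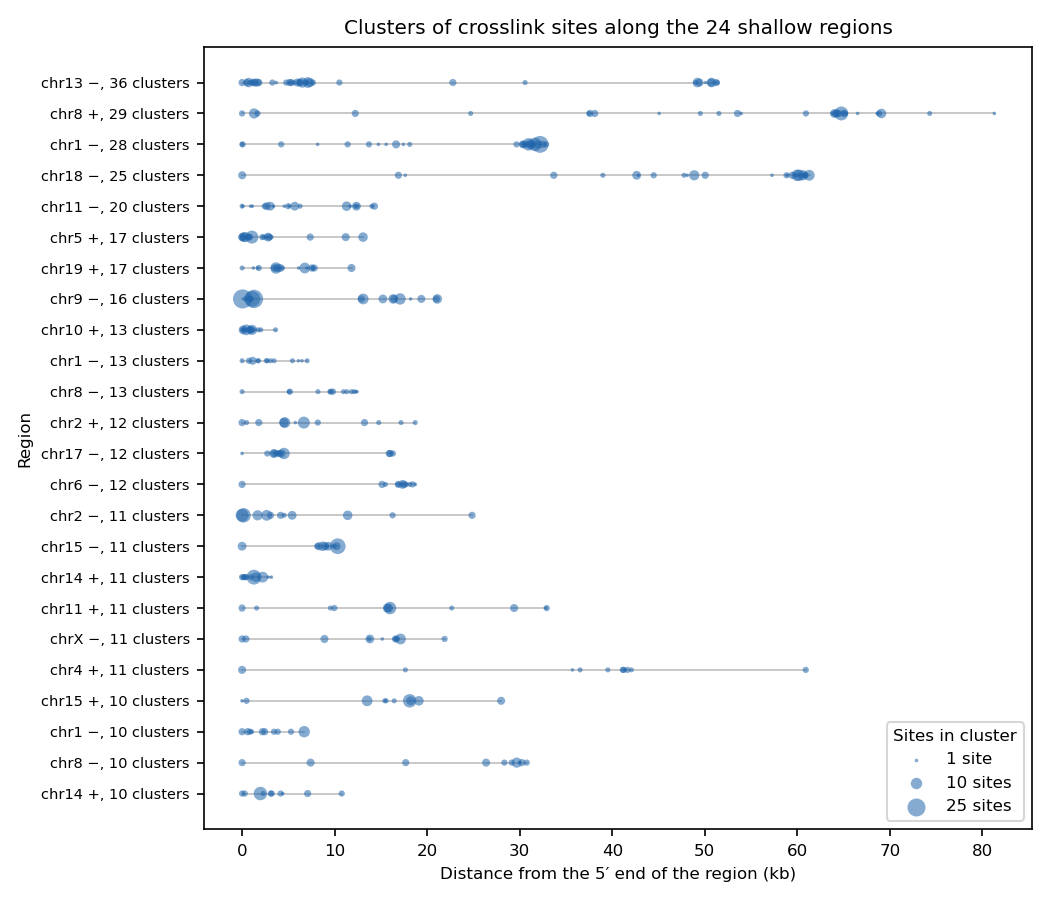
Clusters of crosslink sites (circles, area proportional to the number of sites) along each of the 24 regions; the horizontal axis is the distance in kb from the 5′ end of the region on its own strand, and each row is 1 region with its chromosome, strand and number of clusters. Regions reach from 3.18 kb to 81.3 kb. Clusters bunch at the 3′ end of the 28-cluster chromosome 1 region. In the chromosome 9 region, 6 of the 16 clusters, with 81 of the 139 sites, lie at the 5′ end.

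Depth was the quantity that chose these regions, so it is given as a description. A single cDNA marked 1276 of the 1512 sites (84.4%), 195 sites had 2 cDNAs, 32 had 3, 7 had 4 and 2 had 5. Over all nuclear sites, 65.6% had a single cDNA. The mean per region ran from 1.04 to 1.37 cDNAs per site. No site passed 2 cDNAs in 8 regions, and only the chromosome 9 and chromosome X regions reached 5. In 210 of the 369 clusters (56.9%) every site had a single cDNA.

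The highest mean inside the depth limit was 1.37, in the plus-strand region of chromosome 15. The nearest regions above it were the left-out chromosome 19 region, at 1.45, and the deeper minus-strand region of chromosome 14, at 1.88. For the number of clusters, 4 regions stood at 10, and 5 regions with 9 clusters and means between 1.04 and 1.18 stood just outside. Those 5 held 22 to 59 sites, a range that overlaps the 39 to 51 sites of the 4 just inside.

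**Figure D2:**
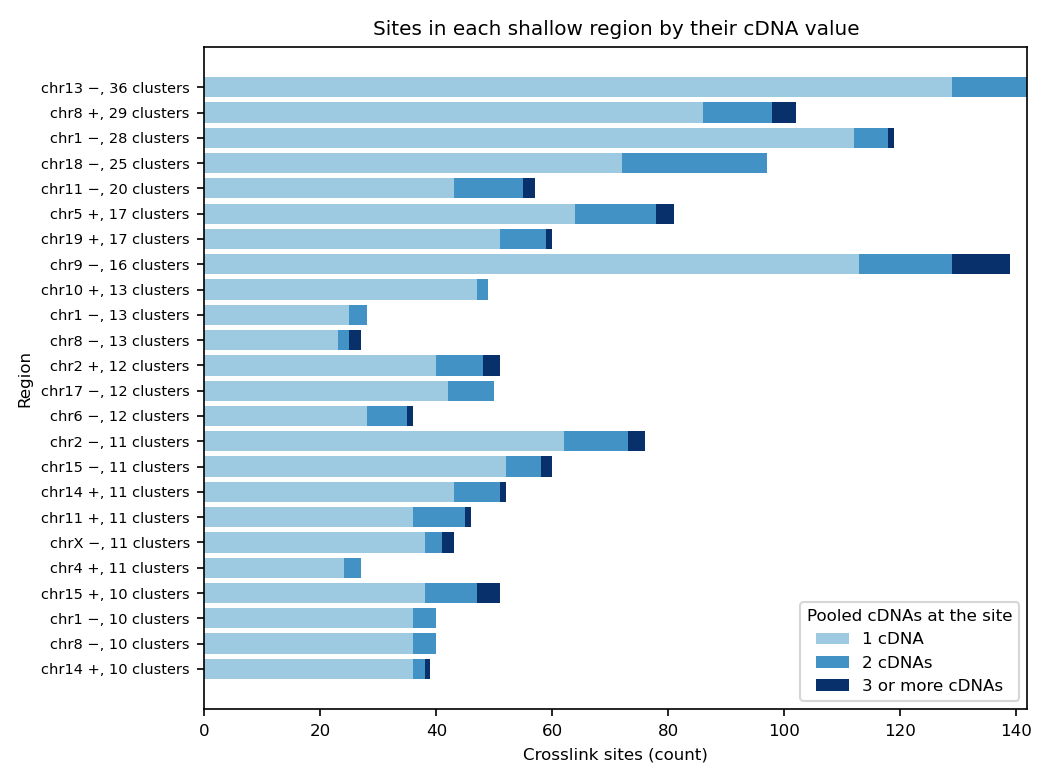
Number of crosslink sites in each of the 24 regions (horizontal bars, starting at 0), divided by the pooled cDNAs at the site. Sites with 1 cDNA form most of every bar, and the chromosome 9 region has the most sites with 3 or more cDNAs, 10 of 139.

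The region with the most clusters and the most sites was chr13:12140004-12191373 (minus strand). Its 36 clusters held 142 sites and 155 cDNAs, and no site had more than 2 cDNAs. Contacts lay mostly near both ends, with few between them. The longest gap was 18417 nt, and 3 gaps were 5000 nt or longer. Upstream of the longest gap, 28 clusters with 109 sites were spread unevenly over the 30.6 kb from 12160784 to 12191373. Of the region's sites, 100 lay in the 20% of its length nearest to the 5′ end. The clusters at 12160784, 12168590 and 12180850 held only 2, 4 and 3 sites. Downstream of the longest gap, 8 clusters with 33 sites lay within 2.36 kb. No cluster dominated, since the richest held 9 sites, or 6.34% of the region, the lowest share among the 24.

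In 5 regions, the chromosome 13 region included, the main block was centred in the first 20% of the length. A block here is a series of clusters with gaps under 500 nt, the main block is the one with the most sites, and first means nearest to the 5′ end. On chromosome 13, 14 clusters with 58 sites lay between 12183719 and 12186595. On chr9:66875868-66896969 (minus strand), 139 sites in 16 clusters carried 178 cDNAs, the most cDNAs of the 24 regions. There 81 of the sites lay in the first 1.35 kb, before a gap of 11523 nt, and the cluster from 66896863 to 66896969, with 28 sites, held more sites than any other in the set. The highest site of the chromosome 9 region, with 5 cDNAs at 66875868, was at the opposite end. On chr5:122543621-122556701 (plus strand), 46 of 81 sites fell within the first 1126 nt, and the richest cluster there was 115 nt wide. On chr2:155980032-156004889 (minus strand), 56 of 76 sites lay in the first 20% of the length, 29 of them in 2 clusters at the very 5′ end. On chr14:55613484-55624261 (plus strand), 39 sites included a cluster of 14 sites, 35.9% of the region, the highest share for a single cluster among the 24. This region lay downstream, on its own strand, of a 9-cluster region with 59 sites between 55587580 and 55589424, at a distance of 24.1 kb. The deeper minus-strand region with the name Myh6 ended before both, at 55584703.

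In 6 regions the main block was centred in the last 20% of the length. The region at chr1:43220727-43253570 (minus strand) held 28 clusters with 119 sites and 127 cDNAs. Of these, 91 sites in 16 clusters lay within 2559 nt at the 3′ end, and a cluster there from 43221293 to 43221444, 152 nt wide, held 22 sites with 23 cDNAs. Upstream of a gap of 11527 nt, the region was thin, with 11 clusters and 25 sites over 18.1 kb. The region at chr18:80489715-80551034 (minus strand) had the same outline at a larger size. Its 10 clusters between 80489715 and 80491634 held 51 of 97 sites, whereas the upstream end was 1 cluster of 5 sites, 16855 nt from its neighbour. That region had 25 sites with 2 cDNAs and none with more. On chr6:118797789-118816510 (minus strand), 32 of 36 sites lay within 3.60 kb at the 3′ end, and a lone cluster of 4 sites set the other end of the region. On chr15:79362309-79372699 (minus strand), 54 of 60 sites lay within 2.27 kb at the 3′ end, again with a lone cluster of 6 sites at the other. On chr8:34913299-34944064 (minus strand), 27 of 40 sites lay in the last 20% of the length. The sixth, chr1:135550824-135557546 (minus strand), had a lone last cluster as its main block. That cluster held 10 of 40 sites within 13 nt, and no gap in the region was longer than 1427 nt. A block of clusters with 2, 3 and 4 sites, from 135556498 to 135556948 near the 5′ end, held nearly as many. Of the 40 sites, 21 lay upstream of the midpoint, so the placing of this region at the 3′ end is weak.

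In the other 13 regions the main block lay between these ends. On chr1:60540140-60547183 (minus strand), the block used, from 60543722 to 60544562, tied at 8 sites with another block nearer the 5′ end. The clusters of that other block lay at 10.7% and 16.3% of the length, inside the first 20%. The main block of chr11:58866731-58881041 was centred at 20.5%, and that of chr14:55613484-55624261, among the 5, at 19.5%. The longest region of the set was chr8:46830765-46912048 (plus strand). Its 29 clusters with 102 sites fell into 16 blocks, 11 of them a lone cluster. A block of 9 clusters with 44 sites between 46894592 and 46896071 held 43.1% of its sites, among them the highest site, with 4 cDNAs at 46895519. The region at chr4:101963858-102024765 (plus strand) was the sparsest, with 27 sites over 60.9 kb, or 0.443 sites per kb. The shortest region, chr14:102283916-102287090 (plus strand), had 16.4 sites per kb, the highest density of the set. Its 52 sites included a cluster 179 nt wide, the widest of all 369. It was followed 26.5 kb downstream by a 9-cluster region from 102313586 to 102319370 with 22 sites on the same strand. The region at chr10:116483953-116487583 (plus strand) was almost as compact and had the lowest mean, 1.04 cDNAs per site. There 47 of 49 sites lay in 1 block of 12 clusters, and the median of all 12 gaps in the region was 96.5 nt.

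The region at chr11:58866731-58881041 (minus strand) held 57 sites in 20 clusters, its richest cluster had 7 sites, and its main block had 26.3% of sites, the lowest share among the 5 regions with 20 or more clusters. The region at chr19:9081235-9093062 (plus strand) had 60 sites in 17 clusters, with 27 of the sites between 9084702 and 9085616. The highest mean of the set, 1.37, belonged to chr15:102301055-102329062 (plus strand). A cluster of 33 nt there, from 102319158 to 102319190, held 14 sites with 21 cDNAs, among them 1 of the region's 2 sites of 4 cDNAs. On chr2:90958297-90977014 (plus strand), the mean was 1.29 and 8 of the 10 blocks were lone clusters. Its richest cluster held 11 sites within 16 nt.

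The remaining 5 regions held 27 to 50 sites. The region at chr17:81996452-82012752 (minus strand) had 35 of 50 sites in a block of 1150 nt, and a further region of 2 clusters with 13 sites lay 22.7 kb upstream of it. The region at chr11:119254383-119287299 (plus strand) had the widest typical spacing, a median gap of 2503 nt between its 11 clusters. On chrX:100656609-100678497 (minus strand), 43 sites in 11 clusters included 1 site of 5 cDNAs at 100661757, within a block that held 18 of the sites. The region at chr1:60540140-60547183 (minus strand) had 28 sites in 13 clusters with a median width of 2 nt, the narrowest of the set. The region at chr8:59783127-59795553 (minus strand) had 27 sites in 13 clusters, none wider than 13 nt.

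Single clusters were small across the 24 regions. Their median width was 11 nt, with an interquartile range of 4 to 16 nt, and 320 of 369 (86.7%) were at most 30 nt wide. The median width per region lay between 8 and 16 nt in 22 of the 24. The authors kept sites by their neighbourhood of 15 nt; its part in this width was not tested. A cluster held a median of 3 sites, 54 clusters were a single site, and 22 held 10 or more sites. The 99 lone clusters, with no other cluster within 500 nt, made up 26.8% of clusters and 22.9% of sites. Lone clusters had a median width of 9 nt and a mean of 1.23 cDNAs per site. Clusters with a neighbour had a median width of 12 nt and a mean of 1.18. Both kinds had a median of 3 sites.

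Neighbouring clusters were mostly near each other, with a few long gaps. The median of the 345 gaps was 364 nt, and the interquartile range was 137 to 1354 nt. Of these gaps, 196 (56.8%) were under 500 nt and 37 (10.7%) were 5000 nt or longer. Clusters covered 1.09% of the combined length of 594 kb, from 0.138% in the chromosome 4 region to 10.0% in the chromosome 10 region. The longest gap took more than 50% of the length in 4 regions, and in 9 regions only 1 cluster lay beyond it, so that a lone cluster set the extent.

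**Figure D3:**
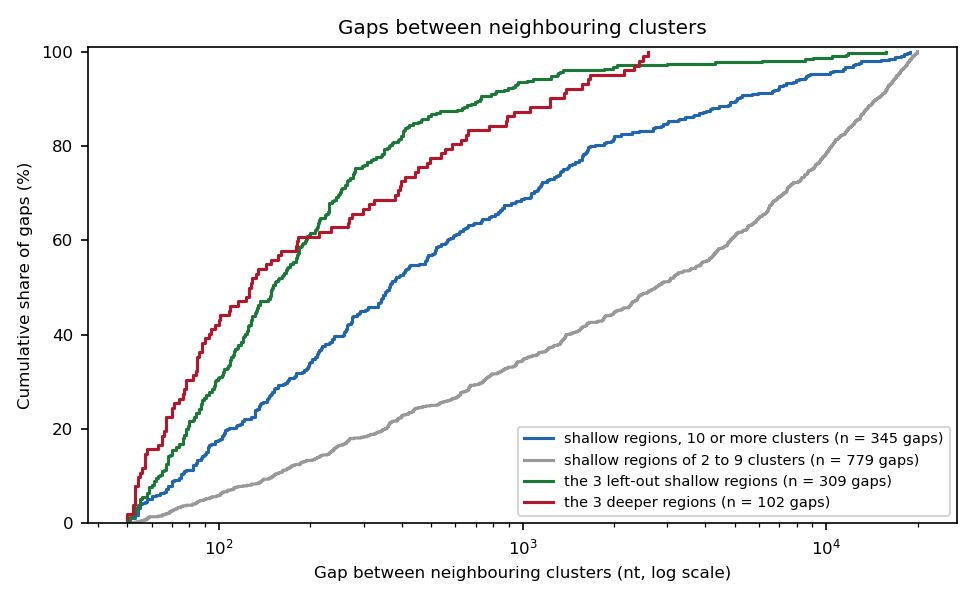
Cumulative share of gaps between neighbouring clusters (vertical axis, %) by gap length (horizontal axis, nt, log scale) in the 24 regions (blue), in regions of 2 to 9 clusters with a mean under 1.5 (grey), and in the 3 left-out (green) and 3 deeper (red) regions of 10 or more clusters. The median gap is 364 nt in the 24 regions, 2741 nt in grey, 151 nt in green and 127 nt in red.

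Shallow regions with fewer clusters were the nearest group for comparison. There were 484 regions of 2 to 9 clusters with a mean under 1.5, with 1263 clusters and 4519 sites. A single cDNA marked 85.8% of their sites (95% exact interval 84.7% to 86.8%) and 84.4% (82.5% to 86.2%) of those in the 24, but both groups were chosen by the same depth limit, so nothing is read from this likeness. Their clusters had the same median of 3 sites but a median width of 6 nt in place of 11 nt. Clusters of 10 or more sites made up 2.53% there and 5.96% in the 24 regions. The median gap was 2741 nt against 364 nt. A rule that asks for many clusters within gaps of 20 kb favours short gaps by itself, and none of these differences was tested.

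The 3 left-out shallow regions held 312 clusters with 2622 sites in 167 kb, clusters covered 6.38% of their length against 1.09% in the 24, and 25.6% of their clusters had 10 or more sites. The median gap was 151 nt and the median width 16 nt. The chromosome 2 region alone supplied 264 of these clusters and 1899 of the sites. By region, clusters covered 5.30%, 7.07% and 38.9% in the left-out chromosome 2, 14 and 19 regions. Among the 24, the chromosome 10 region (10.0%) and chr14:102283916-102287090 (9.73%) lay within that range, and all others were lower. The median gap was 158, 151 and 67 nt in the left-out regions. Among the 24 it was 96.5 nt on chromosome 10, 145 nt on chromosome 5 and longer than 158 nt in the others. The densities by region also overlapped only in part. The left-out chromosome 2 and 14 regions had 13.3 and 14.4 sites per kb. The compact chromosome 10 and chromosome 14 regions, the densest of the 24, had 13.5 and 16.4. All other regions of the 24 were sparser than each of the 3 left-out regions. The left-out chromosome 19 region was denser than any of the 24. In the 3 deeper regions together the median cluster was 29 nt wide with 21 sites. Taken singly, the median was 34 sites on chromosome 19, 11.5 on chromosome 14 and 10 on chromosome 1. Of all sites in the 3 deeper regions, 34.5% had a single cDNA. That share was 13.9% in the chromosome 19 region, which held 1888 of their 3668 sites, and 54.7% and 60.3% in the chromosome 14 and chromosome 1 regions. These 6 regions were set apart by position or depth, so the comparison is a description.

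Sites were shared between a main block and scattered clusters. The block with the most sites held 25% to 95.9% of the sites of its region, with a median of 42.5%, and more than 50% in 8 regions. Its median length was 930 nt. The 24 main blocks together held 734 sites (48.5%). The richest single cluster held 6.34% to 35.9% of sites, with a median of 19.3%, and more than 25% in 5 regions. In 8 of the 24 regions a site of the highest value lay inside the richest cluster, so in the remaining 16 it lay elsewhere.

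**Figure D4:**
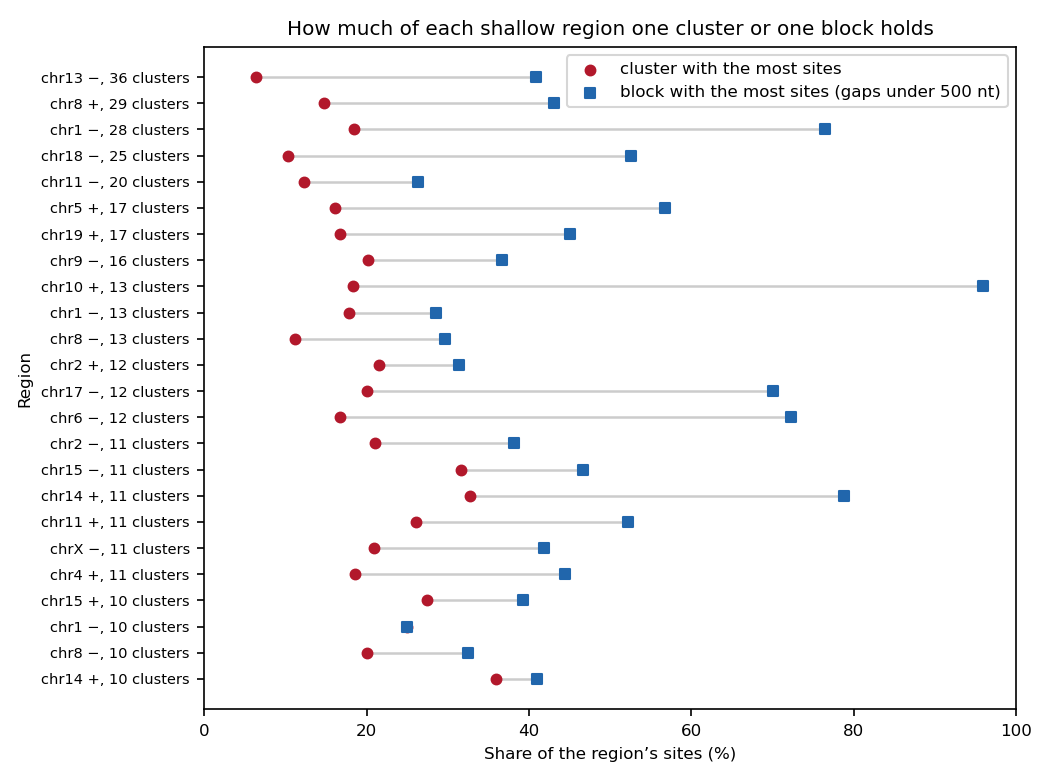
Share of each region's sites (horizontal axis, %) that lay in the cluster with the most sites (red circles) and in the block with the most sites, joined across gaps under 500 nt (blue squares), for the 24 regions. The block share runs from 25% to 95.9% and the cluster share from 6.34% to 35.9%; in the 10-cluster minus-strand region of chromosome 1 both are 25%.

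No common direction along the strand appeared. Of the 1512 sites, 781 (51.7%, 95% exact interval 49.1% to 54.2%) lay upstream of the midpoint of their region. By region, 14 had more sites upstream of the midpoint and 10 had more downstream, from 10.0% to 91.8% upstream. In successive 20% steps of length from the 5′ end, the shares were 31.1%, 14.2%, 9.72%, 15.7% and 29.3%. Without the chromosome 13 region, which has the most sites, the first step had 27.0% and the last 29.9%. The ends of a region are clusters by definition, which adds sites to the outer steps.

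All listed sites within the bounds of the 24 regions were on the strand of the region. Not a single site of the opposite strand lay inside any of the 24 regions, over 594 kb, and the 3 deeper and 3 left-out regions also had 0. In the 484 shallow regions of 2 to 9 clusters, 61 opposite-strand sites lay in 6 regions (1.24%), over 4098 kb. With so small a share, 0 of 24 is near that background and sets the 24 regions apart from neither group. Within 10 kb to either side, only the chromosome 1 region from 43220727 had opposite-strand sites, 3 in number. Sites below the authors' threshold are not in the list, so weaker contacts on the other strand were not measured. On the same strand the next region lay 22.7 kb to 584 kb away, with a median of 76.7 kb, and 8 of the 24 had it within 50 kb.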

How the data were processed

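SRSF4-GFP crosslink sites were measured by iCLIP in 4 libraries of 1 group. The only values are 1 deposited score per 1 nt site on mm9, a whole number of cDNAs whose sign gives the strand. Per the file header, the authors summed 5 numbered data sets and ran 100 permutations over a 15 nt neighbourhood, treated gene regions separately (Ensembl release 59), and kept sites whose false discovery rate was below 0.05. The sources used here do not say how the 5 data sets map onto the 4 libraries, which peak caller was used, or how duplicates and reads with several places were treated. Per the submitters' processing notes, Bowtie 0.10.1 was among the tools. The depth of each library is unknown. The list held 33749 sites with 93371 cDNAs; the 858 mitochondrial sites were set aside.

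Clusters, regions and the left-out positions follow the definitions at the start of the report; positions are 1-based. Gaps count the nucleotides between clusters, and a cluster's width runs from its first to its last site. The regions, the 500 nt blocks and the grouping by block position were chosen with earlier results of these data known. Every region was named by position; those with most clusters, most sites, extreme means and extreme lengths were described in full, by rule, and the others more briefly. With 1 pooled list and members chosen on it, no test was run. Shares have 95% exact (Clopper-Pearson) intervals. These cover only counting error among sites taken as independent, or among regions for strand and nucleotides for covered length. Annotation at hand was for GRCm38; no coordinates were converted, so gene names, gene lists, marker genes, exon and intron classes and bases at the sites were not analysed here. The joining of sites was tested on simulated data, in which all 200 planted regions were recovered with their number of clusters and sites. Alternatives changed the distances and limits of the rule, left out the largest region or used only sites of 2 or more cDNAs. Python 3.11.15, numpy 2.4.6, pandas 2.3.3, scipy 1.17.1 and matplotlib 3.10.9 were used.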

Additional observations from a re-analysis of the deposited data

How the results depend on the processing

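A value was taken as moved when it left the 95% interval of the reported one, from binomial order statistics for medians, or, for a count, changed by over 1.5 times. Of 93 alternative values, 61 stayed within these bounds and 32 did not. The interval of covered length, 1.07% to 1.12%, took nucleotides as independent and was therefore narrow, so even small changes counted as moved. The 24 regions became 8 with 15 or more clusters. Their share of nuclear sites, 4.60%, was 5.14% and 3.41% with joins at 25 and 100 nt, 3.62% and 5.84% with region gaps under 10000 and 50000 nt, 3.04% and 8.39% with the lower and higher depth limits, and 5.36% and 2.42% with 8 or 15 clusters as the minimum. Depth limits were moved below 1.5 and up to 2; the limit of 2 admits the deeper chromosome 14 region. Joins at 100 nt overlapped 16 of the 24 regions and gaps under 10000 nt 20. Median cluster width, 11 nt, was 12.5 nt with 15 or more clusters and 1 nt with only sites of 2 or more cDNAs. The median gap, 364 nt, was 265 and 540 nt with the joins at 25 and 100 nt, 522.5 nt with region gaps under 50000 nt and 906 nt with sites of 2 or more cDNAs. Covered length, 1.09%, was 0.923% and 1.68% with the joins, 1.75% and 0.453% with the region gaps, 1.06% and 1.54% with the lower and higher depth limits, 1.29% with 15 or more clusters and 0.156% with sites of 2 or more cDNAs. Sites upstream of the midpoint, 51.7%, were 48.9% with the higher depth limit and 47.3% with 15 or more clusters. The share in the richest cluster, 19.3%, was 15.4% with 15 or more clusters and 29.7% with sites of 2 or more cDNAs. Sites with a single cDNA, 84.4%, were 87.8% and 71.0% with the lower and higher depth limits. Opposite-strand sites, 0, were 13 with region gaps under 50000 nt. The share in main blocks, 48.5%, was 35.9% and 56.9% with block gaps under 250 and 1000 nt, alternatives chosen after the data were seen. Each of these settings redefines which clusters or regions are counted. Leaving out single replicates was not run, as the list is pooled. No paired analysis was possible because the libraries are 1 group and have no columns of their own.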
